A study of Mus musculus with 2 samples.

Results

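ChIP-seq of TBP was carried out in V6.5 cells, a mouse embryonic stem cell line from a C57BL/6-129 cross, and 240 small sites that stood alone in long stretches of chromosome are described here. The data were 2 libraries of 1 group, both made with the Abcam antibody AB818. B2 (replicate 1, reads of 36 bases) came from cells kept for 2 passages off the feeder fibroblasts, and B6 (replicate 2, reads of 26 bases) from cells kept for 1 passage. The gel slices also had different upper limits. Whether B2 and B6 came from separate cultures is not stated in the labels, so their spread may be technical. A control made without the antibody was not analysed here, and pile-ups that recur for reasons other than TBP cannot be told apart from bound sites.

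TBP, the TATA-binding protein, is a subunit of the factors that place all nuclear RNA polymerases at their start sites. At genes of RNA polymerase II it works within TFIID, at genes of polymerase I within SL1 and at genes of polymerase III within TFIIIB. Binding of TBP bends the DNA and gives the rest of the initiation machinery a platform, so its known sites lie mostly at promoters. Genes were not placed on these coordinates here, so whether an isolated site lies at a promoter is not known from these files.

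Sites were built from distinct reads, meaning 1 read per position and strand, with 5 prime ends moved 60 bp inward and counted in tiles of 200 bp on chromosomes 1 to 19. Touching tiles with at least 15 reads in B2 and 6 in B6 were merged, which gave 13024 sites. An isolated site had 1 to 3 tiles, fewer than 100 reads in its top tile in B2, and no other site within 500 kb on either side. By this rule 240 of the 13024 sites (1.84%) were isolated. The members were thus chosen by their read counts in both libraries, their width and their spacing, and heights, spacing and the excess over background are descriptions with no test. The most alike sites are the 11640 that met the same limits of width and height but had a neighbour within 500 kb, called neighboured sites below.

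B2 held 15563916 distinct reads on the autosomes and B6 held 2796016, or 1.46 and 0.262 per 200 bp of mapped sequence. The isolated sites held 11883 of the B2 reads (0.0763%, Wilson 95% interval 0.0750 to 0.0777) and 4502 of the B6 reads (0.161%, 0.156 to 0.166). Intervals cover counting error only: copies made by PCR carried no molecular identifiers and may stem from the same molecule.

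Most isolated sites were narrow and low. A single tile made up 150 of them, 75 had 2 tiles and 15 had 3. The top tile held 15 to 94 distinct reads in B2 with a median of 29.5, and 6 to 51 in B6 with a median of 12. Neighboured sites had nearly the same medians, 33 and 11. In B2, 51 isolated sites had a top tile of 15 to 20 reads and 54 reached at least 50. Wider sites were also higher, with median top tiles of 24 reads in B2 for 1 tile, 40 for 2 and 62 for 3, and of 10, 16 and 19 in B6. Height in one library went with height in the other. Across the 240 sites Pearson's r of log2 RPM (distinct reads per 1000000 distinct reads on the autosomes) was 0.877 and Spearman's rho 0.848, and across neighboured sites 0.875 and 0.863. These are correlations across sites, whose range both thresholds limit.

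**Figure D1:**
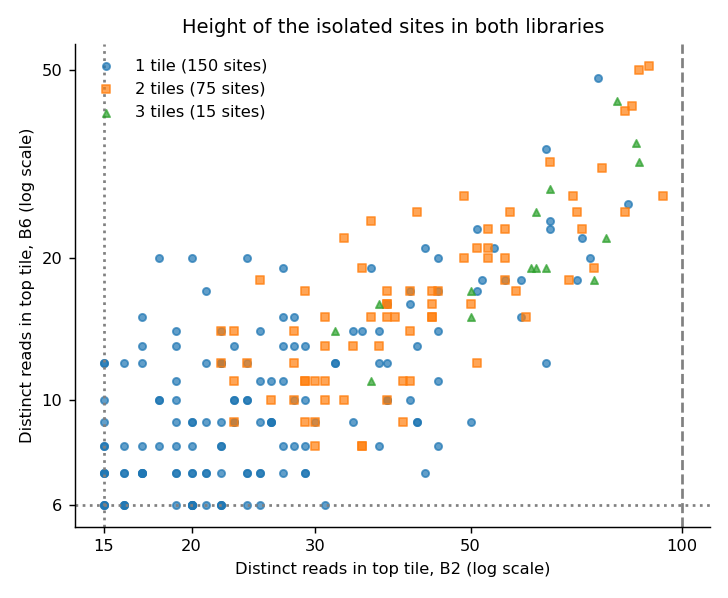
Distinct reads in the top tile of each of the 240 isolated sites in B2 (x axis) and B6 (y axis), both on log scales, with the marker showing the number of tiles. Dotted lines mark the minimum of 15 and 6 reads and the dashed line the limit of 100. The points spread from the lower left corner to 94 reads in B2 and 51 in B6, and the sites of 3 tiles lie in the upper part.

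The highest isolated sites were strong in both libraries. The most reads in a B2 tile, 94, stood on chromosome 9 from 47281001 to 47281400, where B6 had 27. The site at 111515801 to 111516200 of chromosome 13 had 90 in B2 and 51 in B6, the highest B6 tile of all. The site on chromosome 5 from 127906401 to 127906800 held 87 and 50. These 3 sites spanned 2 tiles each and lay at least 616.2 kb from any other.

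Further down the B2 order, 3 tiles on chromosome 17 from 40397801 to 40398400 reached 87 reads in B2 and 32 in B6. Chromosome 8 from 79798001 to 79798600 reached 86 and 35, and chromosome 2 from 50971001 to 50971400 reached 85 and 42. The single tile on chromosome 6 from 103614801 to 103615000 held 84 and 26. The eighth place was shared by chromosome 10 from 22420601 to 22421000, with 83 and 41, and chromosome 1 from 6204401 to 6204800, with 83 and 25. Over these sites the B2 tiles stayed between 83 and 94 reads, while the B6 tiles ranged from 25 to 51.

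The B6 order brought in 3 sites that were lower in B2. A single tile on chromosome 10 from 3134201 to 3134400, the first site of that chromosome, held 48 reads in B6 and 76 in B2. On chromosome 4 from 73722801 to 73723400 the top tile held 43 and 81, and the whole site held 82 and 193 distinct reads, the most of any isolated site in either library. A tile on chromosome 2 from 106775201 to 106775400 held 34 in B6 and 64 in B2.

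Values just inside and outside the limits show how the members were bounded. A top tile of exactly 15 reads in B2 was found in 12 isolated sites, and one of exactly 6 in B6 in 19. Outside, 663 tiles of the autosomes held 14 reads in B2 with at least 6 in B6, and 2752 held 5 in B6 with at least 15 in B2. A further 16 sites were as isolated but too wide or too high. The lowest of these that exceeded the height limit had 121 reads in B2 and 45 in B6 (chromosome 3, 28996401 to 28996800). The nearest to the distance limit inside it lay 500.8 kb from its neighbour (chromosome 6, 66464601 to 66465200), and outside it a pair of sites on chromosome 8 lay 498.8 kb apart.

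The stretches around the isolated sites were long. For the 232 sites with a neighbour on both sides, the distance from one neighbour to the other was 1.06 to 11.98 Mb with a median of 2.32 Mb. The other 8 were the first or last site of their chromosome. The most remote was a tile on chromosome 1 from 113692401 to 113692600, with 22 reads in B2 and 14 in B6, whose neighbours lay 5068 kb and 6446 kb away. On chromosome 5, 82630801 to 82631000 (18 and 8 reads) lay 4245 kb from the nearer neighbour. On chromosome 3, 45474401 to 45474600 (34 and 9) lay 3635 kb away, and on chromosome 14, 113922601 to 113923000 (36 and 24) lay 3049 kb away. The last of these stood in the longest stretch, 11.98 Mb. None of these 4 was among the highest sites, and each had at most 1 weaker tile nearby in the sense given next.

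Weaker tiles were counted around the sites as well, and those touching a site were included. Some may thus be the edge of the site itself. The higher of the touching tiles had a median of 11 reads in B2 and 3 in B6 at isolated sites. Counting tiles with at least 10 reads in B2 and 4 in B6 that belonged to no site, isolated sites had a median of 1 within 500 kb on either side and at most 11. None was found around 81 isolated sites (33.8%). Neighboured sites had a median of 14 such tiles, and 96 of the 11640 (0.825%) had none.

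Many isolated sites were each other's neighbours. Of the 240, 104 had another isolated site as their next site on at least 1 side. There were 39 such runs, 22 of 2 sites, 11 of 3, 3 of 4 and 3 of 5. A long gap counts for the sites at both of its ends, so the rule favours runs, and they are descriptions with no test. The longest run of 5 lay on chromosome 16 from 65733201 to 76896200, in 13.4 Mb that held no other site. Its top tiles held 29, 41, 71, 25 and 22 reads in B2 and 9, 14, 18, 6 and 12 in B6, in order of position. The third of these, from 72545801 to 72546000, was the highest in both libraries. Chromosome 14 had a run of 5 between 10346601 and 13496400, and chromosome 4 another between 4720401 and 9596600. In the former the B2 tiles ranged from 15 to 54 reads, and in the latter from 22 to 77, so high and low sites stood in the same run.

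Isolated sites were found on all 19 autosomes, from 3 on chromosome 11 to 21 on chromosome 1. Chromosome 11 had the most sites, 1265 or 11.3 per mapped Mb, and its 3 isolated ones came to 2.68 per 100 Mb. Chromosome 13 had 18 isolated sites (17.5 per 100 Mb) among 545 and chromosome 17 had 14 (17.3 per 100 Mb) among 700. Chromosome 17 was also dense in sites of all kinds, at 8.63 per Mb, against 5.31 on chromosome 13. Chromosome 18 had few of both, 4 isolated sites (4.98 per 100 Mb) and 4.28 sites per Mb. Over the 19 autosomes Spearman's rho of isolated sites against all sites, both per Mb, was -0.256, and it was -0.256 as well against protein-coding genes per mapped Mb. All sites against genes gave 0.895. These rank correlations are given as descriptions, and isolated sites are counted among all sites.

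**Figure D2:**
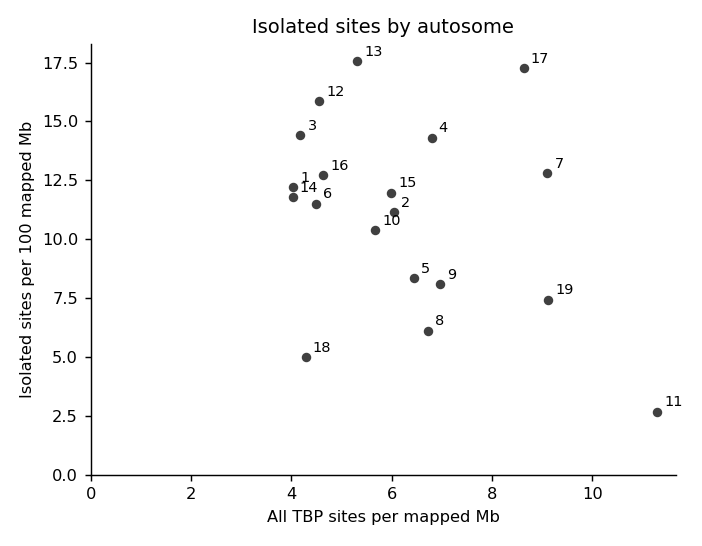
Each point is 1 autosome, with all TBP sites per mapped Mb on the x axis and isolated sites per 100 mapped Mb on the y axis. Chromosome 11 lies alone at the lower right with 11.3 and 2.68, while chromosomes 13 and 17 are highest at 17.5 and 17.3 despite different densities of all sites.

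Plus-strand and minus-strand reads were set apart at most isolated sites. The strand offset is the distance from the median 5 prime end on the plus strand to that on the minus strand within 200 bp of the site. It is related to the length of the fragments around a point of binding. It is not a measure of that length, since the window is limited and background reads in it count too. The median offset was 100.75 bp in B2 (240 sites) and 95 bp in B6 (233 sites with at least 3 reads on each strand), or 97.9 ± 4.07 (SD, n = 2 libraries). It was above 0 at 228 of 240 sites in B2 (95.0%) and at 216 of 233 in B6 (92.7%). Over all 13024 sites these shares were 95.0% and 91.97%, and the medians 96 and 95 bp. Moving ends inward before sites were called favours sites with such an offset, so part of it was built in, and the difference from other sites was not tested.

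**Figure D3:**
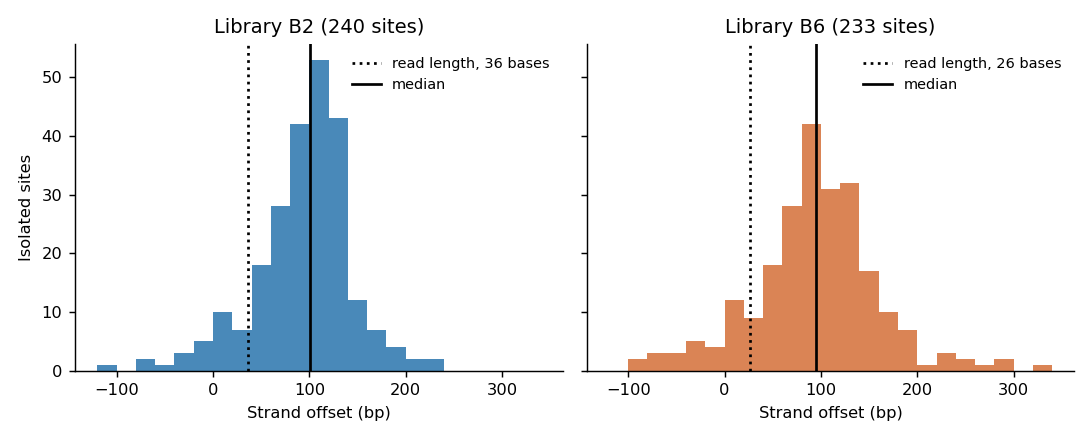
Number of isolated sites (y axis) by strand offset in bp (x axis) in B2 (left) and B6 (right), with the read length as a dotted line and the median as a solid line. Most sites lie between 50 and 150 bp, 185 of 240 in B2 and 152 of 233 in B6, and B6 is wider on both sides.

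Single sites departed from this arrangement. The largest offsets, taken over both libraries, were 269.5 bp on chromosome 4 from 146119201 to 146119400, 262 bp on chromosome 4 from 28981601 to 28982000 and 192 bp on chromosome 7 from 108725401 to 108725600. The first of these had 15 reads in B2 and 6 in B6, at both minimum values. The smallest were -42 bp on chromosome 14 from 122762001 to 122762200, -32.5 bp on chromosome 17 from 93071801 to 93072000 and -32 bp on chromosome 9 from 47281001 to 47281400. The last is the highest site in B2, where its offset was -61.5 bp, while it was 193.5 bp in B6, so the libraries did not give it the same shape. An offset within 5 bp of the read length occurred at 9 sites in B2 and 3 in B6.

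The libraries placed the centres of most isolated sites within 50 bp of each other. The centre of a site, midway between the strand medians, differed between B2 and B6 by a median of 25.25 bp, by at most 50 bp at 184 of 233 sites and by over 100 bp at 13. Neighboured sites gave 25.75 bp. The requirement that 1 tile pass in both libraries limits how far centres can part.

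Both strands contributed evenly. Plus-strand reads were 8197 of 16385 at the isolated sites (50.0%), and 239 of 240 sites had reads of both strands in both libraries. In the two-sided exact binomial test of each site against an even split, with Benjamini-Hochberg adjustment over all 13024 sites, 0 isolated sites passed at 0.05, and 10 (4.17%) had an unadjusted p under 0.05, against 789 (6.06%) of all sites. Over all sites 161 (1.24%) passed, 0.599% with more plus-strand and 0.637% with more minus-strand reads, so a count of 0 among 240 is close to the background. The lowest adjusted p was 0.0664, for chromosome 4 from 62897001 to 62897200, with 23 plus-strand reads and 5 minus-strand reads (82.1% plus). Chromosome 13 from 86520001 to 86520200 came next with 5 and 22 (adjusted p = 0.0992, same exact test).

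**Figure D4:**
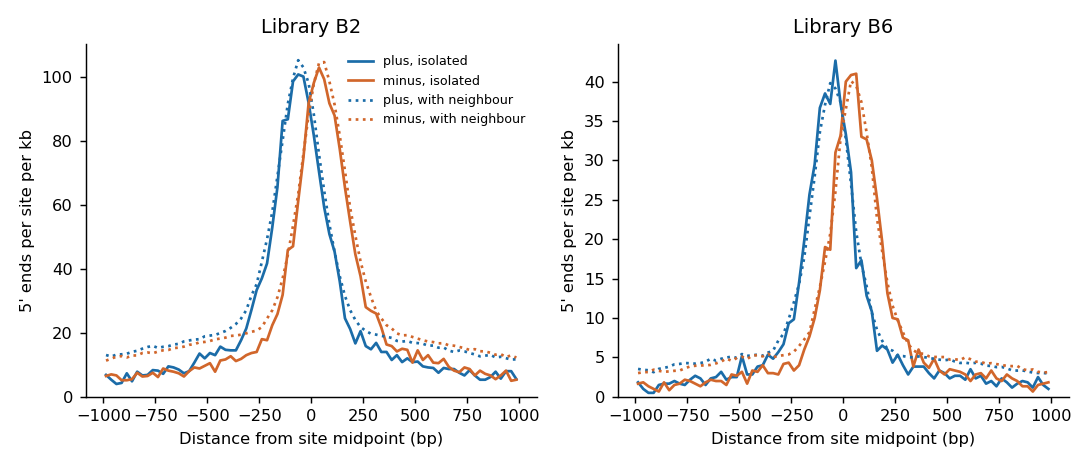
Mean number of 5 prime ends of distinct reads per site per kb (y axis) by distance from the site midpoint in bp (x axis, bins of 25 bp) in B2 (left) and B6 (right). Solid lines are the 240 isolated sites and dotted lines the 11640 neighboured sites. Plus-strand ends peak left and minus-strand ends right of the midpoint in both libraries, and the isolated sites have lower tails.

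The average profile showed the same shape in numbers. At isolated sites in B2 the plus-strand ends were densest -62.5 bp from the midpoint, with 100.7 ends per site per kb, and the minus-strand ends at 37.5 bp, with 102.8. In B6 the densest bins lay at -37.5 bp with 42.7 plus-strand ends and at 62.5 bp with 41.0 minus-strand ends.

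RPM was higher in B6 than in B2 at 238 of 240 isolated sites (99.2%) and at 98.0% of all sites. The rule favours this, since 6 reads come to 2.15 RPM in B6 and 15 reads to 0.964 RPM in B2. The median ratio of B6 to B2 was 2.10, with a range of 0.906 to 6.19. Neighboured sites had a median ratio of 1.998. Set against the reads 2 to 50 kb away, the median isolated site was 27.2-fold denser in B2 and 61.4-fold in B6. The median neighboured site was 13.4-fold and 25.8-fold denser, but the reads around such sites can include other sites. Small sites with the nearest other at 100 to 500 kb came closer to the isolated ones, with medians of 21.2-fold and 48-fold. The rule used the site counts, so these ratios and folds are descriptions.

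No isolated site passed the test of how the libraries divided the reads. Both counts had to reach the minimum of the rule, which partly trims extreme shares. A lack of calls therefore does not show that the libraries divided these reads as at other sites. The two-sided exact binomial test compared the B6 share of each site with 26.95%, the B6 share of all distinct reads in the 13024 sites. With Benjamini-Hochberg adjustment 0 of 240 passed at 0.05, while 14 (5.83%) had an unadjusted p under 0.05, against 1152 (8.85%) of all sites. Over all sites 99 (0.76%) passed, 0.507% as higher and 0.253% as lower in B6, which is close to 0 among 240, and low counts limit what the test can find at these sites. With all reads kept, 4 isolated sites passed as higher and 1 as lower in B6, against 207 higher and 290 lower over all sites. Against the B6 share of all autosomal reads, 123 of 240 isolated sites passed as higher, and 6687 (51.3%) of all sites.

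The sites nearest to the threshold, which did not pass it, leaned towards B6. The rule used these same counts and may favour that direction, so no conclusion is drawn from the lean. Chromosome 16 from 85692201 to 85692400 held 18 reads in B2 and 20 in B6, an RPM ratio of 6.19 (adjusted p = 0.0810, exact binomial test). The site in the longest stretch, on chromosome 14 from 113922601, held 54 and 40 over its 2 tiles, a ratio of 4.12 (adjusted p = 0.0924, exact binomial test). At the other end, chromosome 7 from 88153201 held 43 and 7, a ratio of 0.906.

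Many isolated sites stood on a raised shoulder. Reads 400 to 2000 bp from the site on either side were compared with those 10 to 50 kb away by a two-sided exact binomial test with adjustment over all sites. Of the 240, 173 (72.1%) passed as higher and 0 as lower, against 7022 (53.9%) higher and 1100 (8.45%) lower over all 13024 sites. Among the 1262 small sites whose nearest other site lay 100 to 500 kb away, 61.4% passed as higher and 1.03% as lower. The rule kept other sites out of the shoulder and the background of isolated sites, but not of all 13024. It thus partly shaped the contrast with all sites. With all sites and empty 1-kb bins taken out, an alternative chosen after seeing the data, 164 of 240 and 6787 of 13024 passed as higher, and 0 and 308 as lower. With B6 alone 106 of 240 passed as higher, and 4756 (36.5%) of all sites. With the shoulder taken from 600 to 2000 bp, 146 of 240 passed as higher, and 5815 (44.6%) of all sites. Part of the shoulder may be the edge of the site itself, which was not tested. The difference in these shares was not tested.

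The shoulder of the median isolated site was 1.80-fold over background in B2 and 2.38-fold in B6. It was above background in both libraries at 202 of 240 sites (84.2%), and at 64.3% of all sites. It was at least 2-fold over both libraries together at 110 (45.8%), against 30.2% of all sites and 47.7% of small sites with another within 10 kb. Of small sites with the nearest other at 100 to 500 kb, 32.3% reached 2-fold. In reads, the median shoulder held 32 in B2 and 7 in B6 over 3200 bp. Shoulders of sites of 1, 2 and 3 tiles had similar medians, 1.81, 1.99 and 1.86-fold, values close to one another.

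The 5 sites with the lowest adjusted p for the shoulder all had top tiles above the B2 median of 29.5 reads. In B6 their top tiles held 42, 9, 9, 14 and 9 reads, on both sides of the median of 12. The lowest adjusted p was at chromosome 2 from 50971001 to 50971400, a high site, where 86 shoulder reads in B2 and 26 in B6 were 5.02-fold over background (adjusted p = 1.24e-37, exact binomial test). On chromosome 3, the site from 63384001 to 63384200 had a top tile of 50 and 9 reads and a shoulder of 92 and 16 (5.14-fold, adjusted p = 3.76e-37, exact binomial test). On chromosome 14, 10346601 to 10347000 had 40 and 9 in the tile and 98 and 25 in the shoulder (4.23-fold). On chromosome 3, 110379001 to 110379200 had 45 and 14, with 66 and 10 in the shoulder (6.38-fold, the highest of all 240), and 148926801 to 148927000 had 42 and 9, with 75 and 31 (4.15-fold). In contrast, the high site on chromosome 5 from 127906401 had a shoulder of 0.997-fold and that on chromosome 6 from 103614801 of 1.11-fold.

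Distinct reads with 1 alignment were sparse around the isolated sites. From 2 to 50 kb away the median density was 5.33 distinct reads per kb in B2 and 0.917 in B6, against 11.2 and 2.06 around neighboured sites. The autosomal mean was 7.28 and 1.31 per mapped kb, and 205 of 240 isolated sites lay below it in B2 and 208 in B6. That mean leaves out empty 1-kb bins and includes reads within sites, while the flanks count every kb. This favours values below the mean. Density fell with distance to the nearest site. Small sites with another within 10 kb had medians of 13.5 and 2.65, those at 10 to 100 kb 10.6 and 1.93, and those at 100 to 500 kb 7.11 and 1.16.

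The contrast was smaller with other sites and sequence without reads left out together. Empty 1-kb bins made up a median of 4.95% around isolated sites and 0.990% around neighboured ones. With sites and empty bins taken out, the medians were 5.75 and 0.978 reads per kb around isolated sites, and 10.1 and 1.66 around neighboured sites. A tile reaches 15 reads less easily where all reads are few, so the rule itself favours low background, and no test was made.

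**Figure D5:**
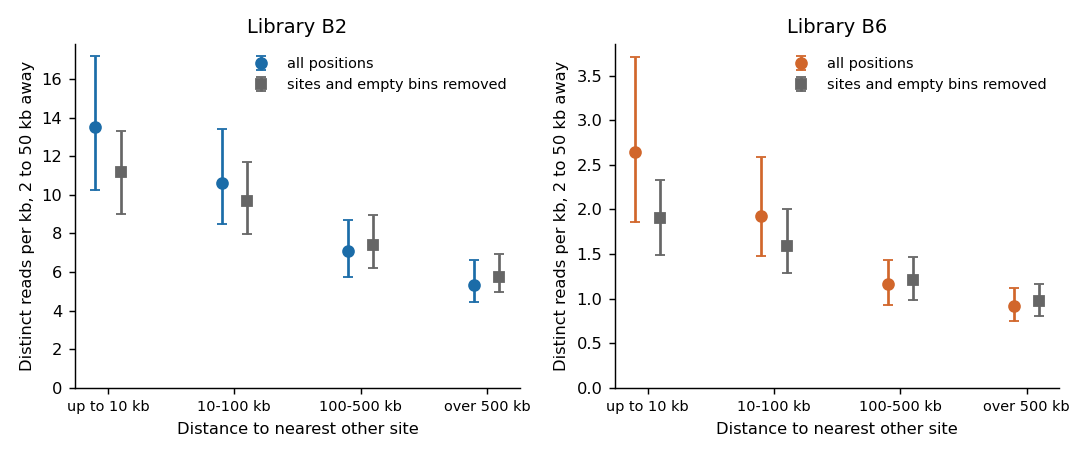
Distinct reads per kb from 2 to 50 kb around small sites (y axis) by distance to the nearest other site (x axis) in B2 (left) and B6 (right), as medians with bars from the lower to the upper quartile. Circles use all positions and squares leave out sites and empty 1-kb bins. The medians fall from left to right in both libraries, from 13.5 to 5.33 in B2 and from 2.65 to 0.917 in B6.

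Reads with 2 alignments, which the rule did not use, were concentrated in some of the sites. Such reads are listed at both places they match, so they mark sequence with a near copy elsewhere and do not tell which copy was bound. A one-sided exact binomial test compared each site with 10 kb on either side, with adjustment over all sites. It called 22 of 240 isolated sites (9.17%), against 1495 of all 13024 (11.5%), so the isolated sites were near the background. With B2 alone 13 were called, and 1018 (7.82%) of all sites.

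The leading case lay on chromosome 12 from 75722801 to 75723200. It held 99 distinct reads with 2 alignments in B2 and 39 in B6, beside 64 and 31 with 1 alignment (adjusted p = 8.62e-155, exact binomial test). The site on chromosome 3 from 56663401 to 56663800 held 42 and 31 (adjusted p = 6.04e-106, exact binomial test), and that on chromosome 12 from 18551801 to 18552200 held 36 and 29. On chromosome 6, 103614801 to 103615000 held 24 and 9, and on chromosome 3, 159430601 to 159430800 held 21 and 15. Over the 22 called sites the median strand offset was 79 bp by B2 and 77 bp by B6.

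The tile on chromosome 6 also differed in its copies. Of its 195 reads with 1 alignment in B2, 56.9% were duplicates (Wilson 95% interval 49.9 to 63.7), the highest share of any isolated site, against 13.3% of 30 in B6 (5.31 to 29.7). Its strand offset, 32.5 bp in B2 and 37 bp in B6, was short. A tile on chromosome 4 from 63984201 to 63984400 was similar, with 55.9% duplicates of 34 reads in B2 (39.5 to 71.1), a B2 offset of 37 bp, a B6 offset of -23 bp and 22 reads with 2 alignments over both libraries. Over all isolated sites, duplicates made up 13.1% of reads in B2 (12.5 to 13.6) and 6.73% in B6 (6.06 to 7.48), against 13.6% (13.5 to 13.7) and 8.77% (8.66 to 8.89) at neighboured sites. These shares pool reads, so sites of many duplicates weigh more. The median per site was 10.3% in B2 and 5.56% in B6 at isolated sites, against 10% and 6.25% at neighboured sites. The difference was not tested.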

How the data were processed

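The deposited files are lists of signed alignment positions on mouse build mm8, which are values other than counts per feature. Reads were aligned by the authors with Bowtie, per the file headers, with -e 70, -k 2, -m 2 and -n 2. The seed length (-l) was 36 in B2 and 26 in B6, and the Bowtie version was not found in the headers or labels used. Reads with 1 and with 2 alignments were listed apart, and duplicates were kept. Positions count the leftmost base from 0 and are printed from 1. Everything else was computed with Python 3.11.15, NumPy 2.4.6, SciPy 1.17.1, pandas 2.3.3 and matplotlib 3.10.9. Mapped length is the 1-kb bins with reads of B2. The 4 exact binomial tests were fitted over all 13024 sites with Benjamini-Hochberg adjustment. They were also run on counts simulated without extra spread between sites, which does not show how they behave on real reads. Named sites are the 8 highest in each library, the 4 most remote, the 3 largest and smallest offsets, up to 5 per test and direction, and those beside a limit of the rule; the runs, the sites nearest to a test's threshold, the lowest RPM ratio and sites of many duplicates were named after their values were seen. The members and tests were chosen with earlier results of these data known. Gene numbers per chromosome came from a table of another assembly, GRCm38.p6. No annotation or sequence of mm8 was used here, so sites carry no gene names and no sequence is printed.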

Additional observations from a re-analysis of the deposited data

Results flagged for a closer look

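Reads with 2 alignments stood outside the main measurement, and 17 isolated sites held more than 3 of them and passed the exact binomial test against their flanks. Counts are distinct reads of both libraries within the site. The 10 sites with the most were chromosome 12 from 75722801 (138 reads), chromosome 3 from 56663401 (73), chromosome 12 from 18551801 (65), chromosome 3 from 159430601 (36), chromosome 6 from 103614801 (33), chromosome 2 from 72276601 (28), chromosome 4 from 146119201 (23), chromosome 4 from 63984201 (22), and chromosome 5 from 22062001 and chromosome 15 from 32865201 (21 each). The last lay in flanks that held 158 such reads, and the one on chromosome 5 in flanks with 13. The other seven held far fewer. Chromosome 6 from 66464601 and chromosome 12 from 20558601 held 7 each, chromosome 1 from 161068601 and chromosome 10 from 72049801 held 6 each, chromosome 4 from 4720401 held 5, and chromosome 4 from 25890401 and chromosome 9 from 47281001 held 4 each. In the last pair all 4 reads came from B6, which has the shorter reads; the part of read length was not tested.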

How the results depend on the processing

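The number of isolated sites was 198 with B2 alone and 210 with B6 alone, and 226 to 283 under other shifts, tile positions, minimum counts and read selections. It moved with the distance, to 536 at 250 kb and 76 at 1000 kb. It was 81 when tiles of 10 and 4 reads also counted as neighbours, including tiles that touch the site. Of the 240 sites, 144 remained isolated by B2 alone, 148 by B6 alone and 162 with tiles moved by 100 bp. For a share differing between libraries, 123 isolated sites (of 6687 over all sites, 51.3%) were higher in B6 against the share of all distinct reads. The minimum counts of the rule favour that direction. With all reads kept, 4 were higher and 1 lower (of 207 and 290). For strand balance, 1 site in each direction passed with all reads kept (of 182 with more plus-strand and 172 with more minus-strand reads), and 0 with either library left out (of 5 to 30 and 11 to 26). Reads with 2 alignments gave 13 to 19 called sites with a library left out, of 1018 to 1330. Raised shoulders numbered 106 to 160 with a library left out, of 4756 to 6615, and 146 of 5815 when taken from 600 to 2000 bp. With background at 50 to 250 kb, 1 lowered shoulder of 743 passed. The median strand offset over both libraries together was 98 bp, 102.25 bp in a window of 400 bp, and 95 to 100.75 bp with a library left out. Background around isolated over neighboured sites was 0.467, with 0.444 to 0.475 in single libraries and 0.572 with sites and empty bins taken out. Taking out sites and empty bins, counting weaker tiles as neighbours and leaving out the sites called for reads with 2 alignments were chosen after seeing the data. The cause of the changes was not tested. Tests with a library left out also had fewer reads. No paired analysis was possible because there is 1 group. The depth of B6, 0.262 distinct reads per 200 bp, limits shape and share at sites of few reads.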
